A study of Mus musculus with 2 samples.

Results

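The genes described here encode ion channels and ionotropic glutamate receptors. They were taken by symbol from the deposited gene models: all names that begin with Kcn and a subfamily letter and number, Gria, Grik, Grin, Cacna, Scn, Trpc, Trpm, Trpv, P2rx or Clcn with its number or letter, without names ending in os or holding -ps. The rule found 178 of 34745 gene models. Their transcripts were counted in bone marrow stem and progenitor cells of C57BL/6 mice that had been infected with PML/RARa, the fusion oncoprotein of acute promyelocytic leukaemia, either in the form labelled 2KR or in the wild-type form (WT). What 2KR changes is not spelled out in the labels. Both cultures received concentrated lentivirus with 6 µg/ml polybrene, were spun with the virus for 40 min at 1800 rpm, and were given fresh medium after 24 h. The medium held SCF at 50 ng/ml, IL-3 and IL-6 at 10 ng/ml each, hydrocortisone and 20% serum. Transduced cells were collected for total RNA. Each form had 1 library, with 20462011 counts in 2KR and 17606168 counts in WT. Both libraries carry a form of the fusion, and a library without it was not analysed here. The labels do not say how many mice gave the cells, nor how transduced cells were told from others.

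Ion channels are membrane pores that let potassium, sodium, calcium or chloride move down their gradients, and they open in response to voltage, ligands, calcium, stretch or temperature. In neurons they carry the action potential, and ionotropic glutamate receptors of the AMPA, kainate and NMDA types carry fast excitatory transmission. Cells of the blood use a smaller set: potassium channels hold the membrane potential that drives calcium entry, P2X receptors respond to extracellular ATP, and CLC proteins of endosomes and lysosomes exchange chloride for protons. The name rule also takes auxiliary subunits (Kcnab, Kcne, Kcnip, Kcnmb), 3 noncoding RNAs, of which Kcnq1ot1 is the best known, and Trpc4ap, whose protein binds a TRP channel but is not one.

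With a single library of each form no difference could be set against replicate spread, and no statistical test was made. Counts were scaled to CPM, that is, divided by the TMM-adjusted library total and rescaled to a common depth, and a gene was compared (called tested from here on) when its mean was at least 1 CPM. It was counted as different when the ratio of CPM + 1 reached 2-fold. A fold is given as the plain CPM ratio, followed in brackets by its exact 95% limits, which hold counting error and nothing else. In bulk RNA, fewer cells of a type and less RNA per cell cannot be told apart. Markers of the labelled cells were read in both libraries: 10 of 10 progenitor markers, Kit and Cd34 among them, had at least 10 counts in each.

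Like most gene models, most of the channel repertoire was silent or close to it. Of the 178 genes, 85 had 0 counts in both libraries (47.8%, beside 49.2% of all gene models), another 30 stayed under 10 counts in both, and 48 were tested. The 178 genes together took 0.209% of the counts in 2KR (Wilson 95% interval 0.207 to 0.211) and 0.229% in WT (0.227 to 0.231). Of the 48 tested, 3 were at least 2-fold higher in 2KR, where the share of all 12466 tested models that met the same rule was 2.66%. A further 8 were at least 2-fold lower, where the share of all tested models was 4.56%. In both directions together that makes 11 of 48 (22.9%), beside 7.22% of all tested models. Of the 11, Kcnq5, P2rx5, Kcnn3 and Trpm6 had under 1 CPM in one library and passed the filter only through the library where they were high, so the count is a description. With a mean of at least 10 CPM, 6 of 28 channel genes (21.4%) and 4.68% of all models were past 2-fold, and of these 6 Gria3 and Kcnt1 reached that mean through WT alone. Under that mean, where the 4 genes above lie, 5 of 20 channel genes and 15.4% of all models were past 2-fold. On the log2 scale, 2KR over WT, the median ratio was -0.20 for the 48 genes and 0.02 for all tested models. A ratio below 1 was found in 31 of the 48, beside 5951 of all 12466 tested models.

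**Figure D1:**
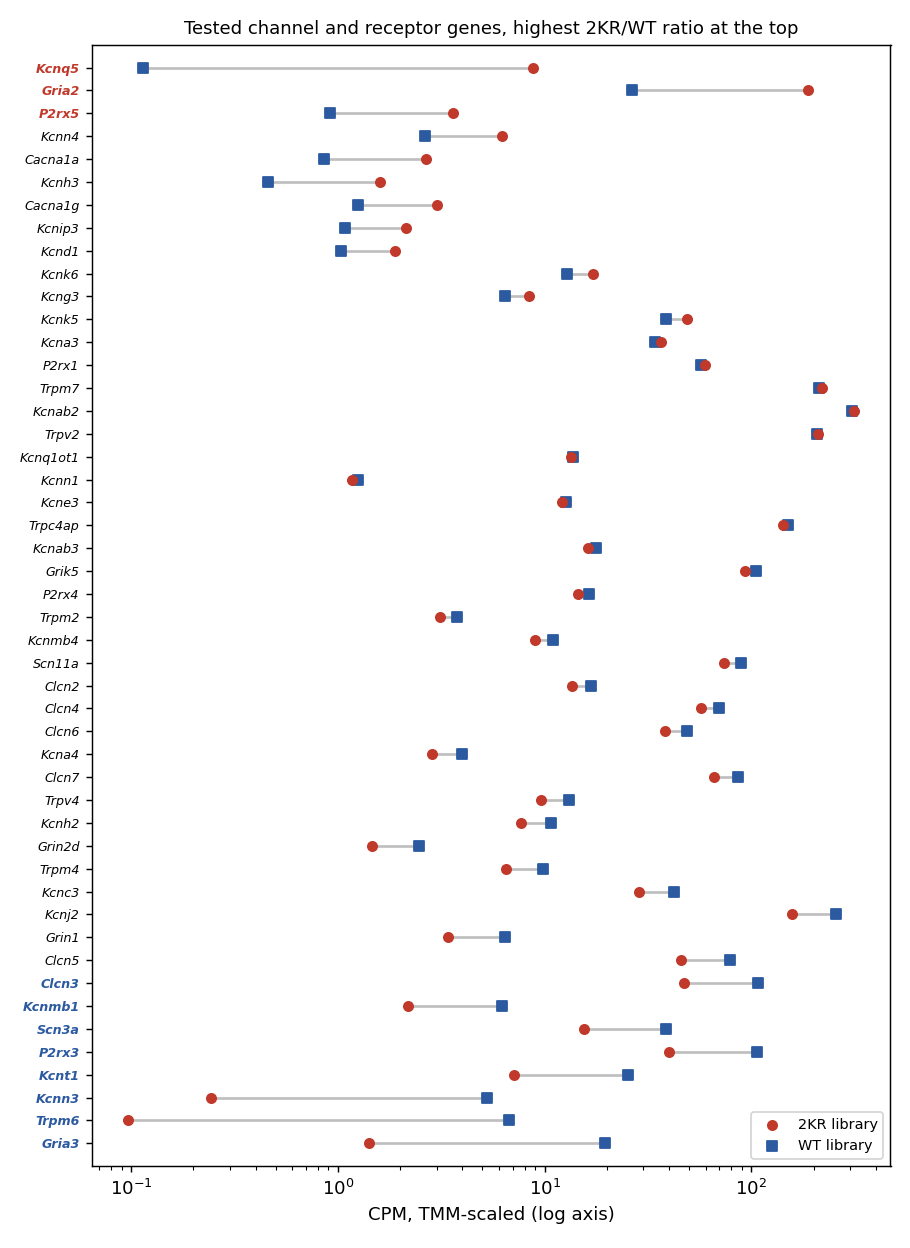
TMM-scaled CPM of the 48 tested genes in the 2KR library (circles) and the WT library (squares) on a log axis, ordered by the log2 ratio of CPM + 1. Bold names are at least 2-fold different: 3 higher in 2KR at the top and 8 lower at the bottom, and in the middle the symbols nearly coincide for abundant genes such as Trpv2, Trpm7 and Kcnab2.

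The genes with the widest ratios were Kcnq5 and Gria2 on the higher side and Gria3, Trpm6 and Kcnn3 on the lower side. The 250 bases before the RefSeq start nearest to the gene model for 4 of these genes are shown, to give the DNA beside the annotated starts of genes with wide ratios (build GRCm38.p6, 5′ to 3′ on the strand of the gene). Gria2 has chr3:80802836-80803085 on the minus strand, Kcnq5 chr1:21961943-21962192 on the minus strand, Kcnn3 chr3:89519914-89520163 on the plus strand and Trpm6 chr19:18749480-18749729 on the plus strand. Which start these cells use was not measured, and RefSeq lists 2 starts for Kcnq5. Capitals mark CG dinucleotides, the sites of DNA methylation.
Gria2: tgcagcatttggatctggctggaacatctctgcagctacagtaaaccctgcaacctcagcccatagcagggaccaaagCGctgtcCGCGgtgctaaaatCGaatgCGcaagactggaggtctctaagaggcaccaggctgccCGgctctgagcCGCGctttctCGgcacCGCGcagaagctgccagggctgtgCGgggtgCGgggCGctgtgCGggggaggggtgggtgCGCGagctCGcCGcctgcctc
Kcnq5: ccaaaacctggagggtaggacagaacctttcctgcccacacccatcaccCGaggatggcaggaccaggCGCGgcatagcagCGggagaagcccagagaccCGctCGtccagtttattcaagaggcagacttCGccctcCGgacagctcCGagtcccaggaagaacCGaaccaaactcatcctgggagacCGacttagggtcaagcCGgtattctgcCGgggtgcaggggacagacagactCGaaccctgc
Kcnn3: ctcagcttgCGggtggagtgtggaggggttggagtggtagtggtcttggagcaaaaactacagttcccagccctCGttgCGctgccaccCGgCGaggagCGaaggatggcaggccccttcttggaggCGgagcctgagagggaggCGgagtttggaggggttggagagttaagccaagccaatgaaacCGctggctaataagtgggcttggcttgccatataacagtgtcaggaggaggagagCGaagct
Trpm6: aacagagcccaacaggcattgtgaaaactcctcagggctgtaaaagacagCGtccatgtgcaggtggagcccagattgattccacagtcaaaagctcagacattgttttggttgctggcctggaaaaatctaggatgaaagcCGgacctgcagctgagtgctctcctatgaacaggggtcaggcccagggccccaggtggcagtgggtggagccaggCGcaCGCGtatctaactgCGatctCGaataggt

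The CG count was 19 in the Gria2 promoter, 14 in Kcnq5, 10 in Kcnn3 and 7 in Trpm6, where the median of 27025 promoters of the same length was 6 (quartiles 2 and 16). For Trpm6 the RefSeq start lies 253 bases upstream of the deposited gene model, and for the others it is the first base of the model. The same windows were searched on both strands for AGGTCA, the hexamer bound by retinoid receptors, GGGCGG, the GC box, and TATAAA, the TATA box. None of the 3 motifs is contained in another, and none was found in the 4 windows. Over the 32 tested genes with a RefSeq start within 1000 bases of the model, 1 window held AGGTCA (P2rx4), against 13.8% of all promoters, 16 held GGGCGG (50%, against 32.9%) and 1 held TATAAA (against 13%). The median CG count was 12.5 over these 32 genes and 6.5 over 60 genes with 0 counts in both libraries. These matches describe letters only. The 27025 promoters take the first listed start of each gene, read in these cells or not. The genes described here take the start nearest to the model, so the 2 sets were not picked alike.

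Among glutamate receptors the AMPA genes differed most, and in opposite directions. Gria2 (chromosome 3, 80681450 to 80802835, 16 merged exons) encodes the AMPA subunit that keeps calcium out of the channel once its transcript is edited. It had 3858 counts in 2KR and 464 in WT, or 187 and 26.5 CPM, which is 7.06-fold higher (6.41 to 7.79). Gria3 (chromosome X, 41400854 to 41678601), another AMPA subunit, had 29 counts in 2KR and 342 in WT, or 1.41 and 19.6 CPM, 13.9-fold lower (9.50 to 21.1). Gria1 (chromosome 11, 57011387 to 57330244) had 35 counts in 2KR and 0 in WT. With 3 counts as the floor of the WT library, or 0.172 CPM, this is at least 9.90-fold higher than that floor, and the lower 95% counting limit of the ratio is 7.63, but its mean of 0.849 CPM kept it under the filter. Gria4 was listed at 0 in both.

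The make-up of the AMPA transcripts was different in the 2 libraries, as far as counting error goes; the Wilson intervals of the shares, like the fold limits, hold no spread between cultures. Gria2 made up 98.4% of the 3922 AMPA counts in 2KR (Wilson interval 97.9 to 98.7) and 57.6% of the 806 in WT (54.1 to 60.9). Gria3 made up 0.739% in 2KR (0.515 to 1.06) and 42.4% in WT (39.1 to 45.9). Counted per length, by the deposited FPKM, Gria2 held 97.5% of the family in 2KR and 53.3% in WT. Few 31-base words are shared: 1.41% of those of Gria2 transcripts, 1.49% of those of Gria3 and 0.282% of those of Gria1 occurred in transcripts of any other gene. The gene sharing most of them was Gm25749 for Gria2, Gm22413 for Gria3 and Gria2 for Gria1.

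The kainate and NMDA genes were closer between the libraries. Grik5 encodes a kainate subunit that reaches the surface only with a partner from Grik1, Grik2 or Grik3. It had 93.3 CPM in 2KR and 104.8 in WT, a ratio of 0.891 (0.835 to 0.950), and was the most abundant glutamate receptor gene per length, at 13.7 FPKM in 2KR and 15.1 FPKM in WT. Its partners were nearly unread: Grik2 had 1 count in 2KR and 0 in WT, and Grik1 and Grik3 were listed at 0 in both. Grin1, the obligate NMDA subunit, had 70 counts in 2KR and 112 in WT, a ratio of 0.530 (0.388 to 0.721), and Grin2d, one of its partners, had 30 and 43 counts in the same order, a ratio of 0.592 (0.359 to 0.966). Neither reached the 2-fold rule. Their values are uncertain, because 13.5% of the exon bases of Grin1 and 9.66% of those of Grin2d lie opposite an antisense model (Grin1os and Gm45441).

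**Figure D2:**
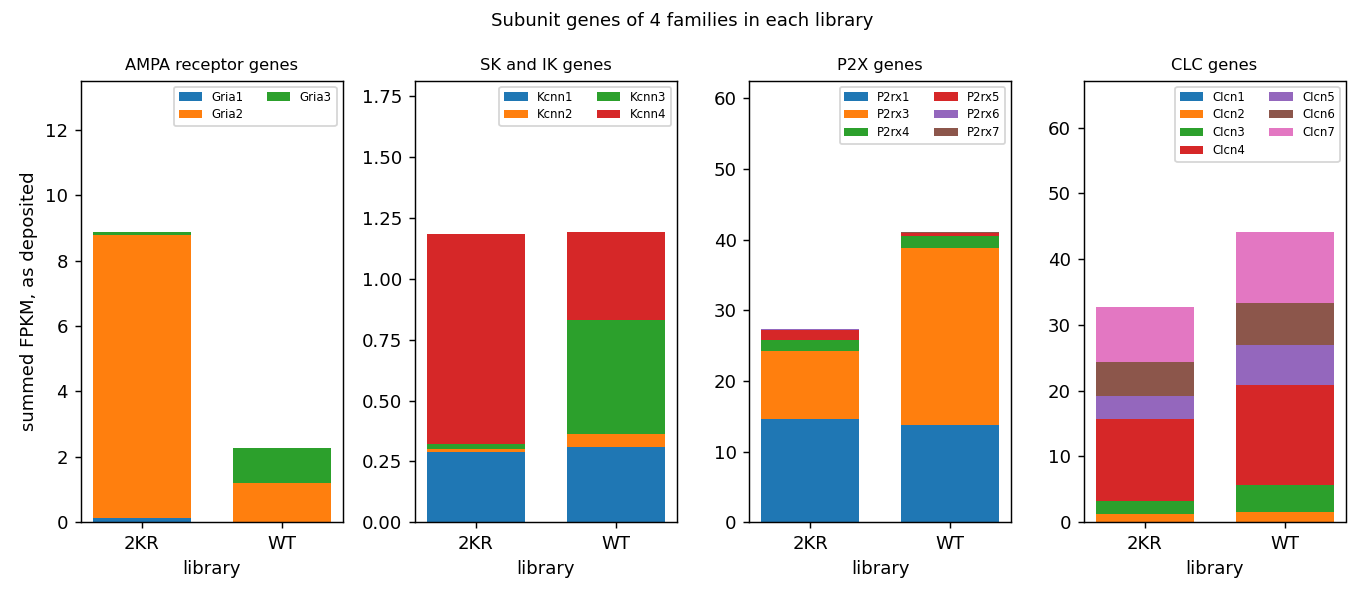
Deposited FPKM of the genes of 4 families, stacked, in the 2KR library (left bar) and the WT library (right bar), with no error bars since each form had 1 library. The AMPA sum is 8.86 FPKM in 2KR and 2.27 in WT and is nearly all Gria2 in 2KR, Kcnn4 takes most of the SK and IK sum in 2KR, and the orange P2rx3 block of the P2X family is smaller in 2KR.

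Potassium channel genes formed the largest class, with 96 names, of which 54 were at 0 in both libraries and 22 were tested. In 2KR 1 was at least 2-fold higher and 3 were at least 2-fold lower (18.2%, beside 7.22% of all tested models), and the median log2 ratio was -0.05. Kcnq5 (chromosome 1, 21398403 to 21961942), the gene of a voltage-gated channel of the M-current type, had 181 counts in 2KR and 2 in WT, or 8.78 and 0.114 CPM, a ratio of 76.8 (20.95 to 639). It was nearly absent in WT and took 98.9% of the KCNQ counts in 2KR (96.1 to 99.7), where the family summed to 183 counts, against 6 in WT.

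On the lower side stood Kcnn3, Kcnt1 and Kcnmb1. Kcnn3 (chromosome 3, 89520164 to 89675132), a small-conductance channel opened by calcium, had 5 counts in 2KR and 92 in WT, 21.7-fold lower (8.96 to 68.4). Kcnt1 (chromosome 2, 25863734 to 25918273), a channel opened by intracellular sodium, had 7.13 CPM in 2KR and 25.3 in WT, 3.54-fold lower (2.93 to 4.30). Kcnmb1 (chromosome 11, 33963013 to 33973641), a beta subunit of the large-conductance BK channel, had 45 counts in 2KR and 109 in WT, 2.86-fold lower (2.00 to 4.14). The pore gene of the BK channel, Kcnma1, was listed at 0 in both libraries, and the beta subunit was read without it.

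Within the calcium-activated Kcnn family the leading gene differed between the libraries. Kcnn4, the intermediate-conductance channel of red cells, mast cells and lymphocytes, had 128 counts in 2KR and 46 in WT, a ratio of 2.36 (1.67 to 3.38). Its log2 ratio of CPM + 1 was 0.99, just under the rule. Kcnn4 made up 80.0% of the family's 160 counts in 2KR (73.1 to 85.5) and 26.6% of 173 in WT (20.6 to 33.6), while Kcnn3 made up 3.12% in 2KR (1.34 to 7.11) and 53.2% in WT (45.8 to 60.5). Per length, by FPKM, Kcnn4 held 72.8% of the family in 2KR and 30.3% in WT, and Kcnn3 held 1.84% and 39.2% in the same order. Kcnn1 held 24.4% in 2KR and 25.9% in WT, so no gene had a majority of the FPKM in WT. The summed FPKM of the family was almost equal, 1.18 in 2KR and 1.19 in WT.

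None of the 3 potassium channel genes with the highest FPKM reached the 2-fold rule. Kcnj2, the inward rectifier Kir2.1 that sets a resting potential, had 29.1 FPKM in 2KR and 46.9 in WT, and its CPM ratio was 0.612 (0.585 to 0.641). Kcnab2, a cytoplasmic beta subunit of Kv1 channels, had 26.7 FPKM in 2KR and 25.7 in WT, with a CPM ratio of 1.02 (0.987 to 1.06). Kcna3, the voltage-gated Kv1.3 channel best known from lymphocytes, had 19.3 and 17.8 FPKM in the same order and a CPM ratio of 1.07 (0.960 to 1.19). The 2-pore channel genes Kcnk5 and Kcnk6, which carry background potassium current, had CPM ratios of 1.27 (1.15 to 1.40) and 1.34 (1.13 to 1.59).

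Of 14 sodium channel names 2 were tested and both had a ratio below 1, beside 5951 of all 12466 tested models. Scn3a (chromosome 2, 65457118 to 65567627), a neuronal channel of the embryonic brain, had 321 counts in 2KR and 673 in WT, or 15.6 and 38.5 CPM, 2.47-fold lower (2.16 to 2.83). Scn11a, the persistent sodium channel of pain-sensing neurons, was the sodium channel with the most reads in both libraries, with 12.7 FPKM in 2KR and 15.1 in WT and a CPM ratio of 0.830 (0.773 to 0.892). Of the 31-base words of Scn3a, 9.57% occurred in other genes, most often in Scn2a, its neighbour on chromosome 2. That neighbour, Scn2a1 in the files, had 6 counts in 2KR and 1 in WT.

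Voltage-gated calcium channel genes were read at very low levels. Cacna1a, the P/Q-type pore, had 55 counts in 2KR and 15 in WT, a ratio of 3.11 (1.73 to 5.93), and Cacna1g, a T-type pore, had 62 and 22 counts in the same order, a ratio of 2.39 (1.449 to 4.09). On the scale with 1 CPM added the log2 ratios were 0.98 and 0.83, under the rule. Cacna1b, the N-type pore, had 9 counts in 2KR and 22 in WT and was under the filter. Of the 14 names, 8 were at 0 in both libraries.

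Of 7 tested TRP genes, 1 was past 2-fold (14.3%, beside 7.22% of all tested models) and the 2 most abundant had close levels. Trpv2, a cation channel of phagocytes and mast cells, had 37.6 FPKM in 2KR and 36.9 in WT, and Trpm7, a fused channel and kinase that passes magnesium, had 12.9 and 12.4 FPKM. Their CPM ratios were 1.01 (0.962 to 1.05) and 1.03 (0.982 to 1.07). Trpm6 (chromosome 19, 18749983 to 18892510), the other fused channel and kinase and known from magnesium uptake in gut and kidney, had 2 counts in 2KR and 117 in WT, a ratio of 0.0145 (0.00174 to 0.0536). It was all but absent in 2KR. Trpc4ap had a ratio of 0.949 (0.900 to 1.00). The other 3 tested TRP genes were Trpm2, Trpm4 and Trpv4, with log2 ratios of -0.22, -0.52 and -0.42.

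P2X genes encode channels opened by extracellular ATP, and 4 of 7 were tested. P2rx3 (chromosome 2, 84998583 to 85037462), the subunit of sensory neurons, had 826 counts in 2KR and 1855 in WT, or 40.1 and 106 CPM, 2.65-fold lower (2.44 to 2.88). Of its exon bases, 1.83% lie opposite the more abundant Ssrp1, which had 389 CPM in 2KR and 412 in WT. P2rx5 (chromosome 11, 73160421 to 73172685) had 74 counts in 2KR and 16 in WT, 3.92-fold higher (2.26 to 7.22). P2rx1, the receptor of platelets, had 14.7 FPKM in 2KR and 13.7 FPKM in WT, a CPM ratio of 1.05 (0.967 to 1.14), and P2rx4 had a ratio of 0.881 (0.747 to 1.04). P2rx3 was the leading P2X gene in WT, with 61.1% of the family's FPKM, and P2rx1 the leading one in 2KR, with 53.6%. P2rx7, the receptor of macrophages, had 7 counts in 2KR and 3 in WT.

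All 6 tested CLC genes had a ratio below 1, beside 5951 of all 12466 tested models. For each of the 6 the counting interval lay below 1. How many of all tested models have such an interval was not counted, so this does not set the CLC genes apart. Other scalings move all ratios in the same direction and left these 6 below 1. With no filter Clcn1, with 7 counts in 2KR and 5 in WT, joined them with a ratio above 1. Clcn3 (chromosome 8, 60910389 to 60983300), an endosomal chloride and proton exchanger, had 974 counts in 2KR and 1881 in WT, 2.28-fold lower (2.11 to 2.46). It was the only one of the 6 past 2-fold (16.7%, beside 7.22% of all tested models). Clcn5, its close relative in endosomes, had a ratio of 0.579 (0.533 to 0.630) and Clcn4 one of 0.817 (0.753 to 0.885). Clcn7, the exchanger of lysosomes, had 8.32 FPKM in 2KR and 10.7 in WT and a CPM ratio of 0.764 (0.710 to 0.823), and Ostm1, its obligate beta subunit, had a ratio of 0.738 (0.675 to 0.806). Clcn6 had a ratio of 0.782 (0.708 to 0.862) and Clcn2, a channel of the cell surface, 0.811 (0.686 to 0.959). For Clcn4, 11.5% of the exon bases lie opposite the model Gm45631.

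**Figure D3:**
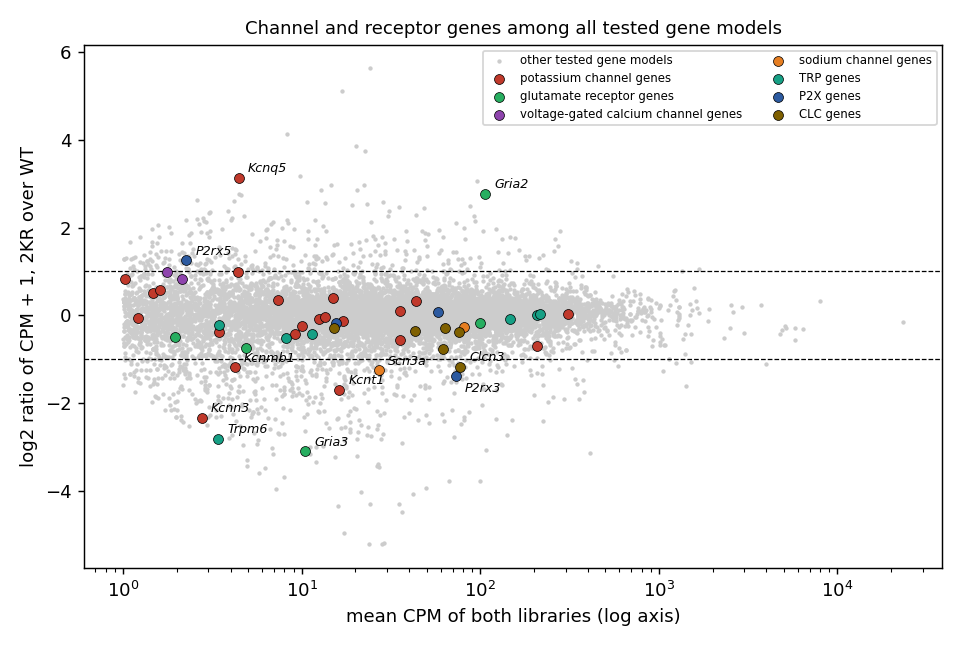
Log2 ratio of CPM + 1, 2KR over WT, against the mean CPM (log axis) for all 12466 tested gene models (grey) and the 48 channel and receptor genes (coloured by class), with dashed lines at 2-fold. Gria2 stands above the dashed line at a mean over 100 CPM, Gria3, Trpm6 and Kcnn3 are the lowest coloured points, and the 11 named genes lie outside the lines.

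The channel genes past 2-fold included long ones. Their median span was 110.5 kb (10.6 to 563, n = 11) and that of the 37 within it was 30.6 kb, where over all tested models the medians were 26.5 kb for those past 2-fold and 20.7 kb for the rest. The median mean level was 10.48 CPM in the 11 and 15.0 CPM in the 37. In the order of FPKM, Gria2 was number 13 of 48 in 2KR and number 31 in WT, and P2rx3 was number 12 in 2KR and number 4 in WT.

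Gene models within 500 kb of the 11 genes were read to see whether the difference extended to neighbours. Of 114 tested neighbours, 8 were past 2-fold (7.02%, near the 7.22% of all tested models), 5 of them in the direction of the channel gene. These 5 lay near P2rx3 and Kcnt1. Next to P2rx3, Tnks1bp1, 10.6 kb away, had 70.0 CPM in 2KR and 173 in WT. Slc43a1 and Ube2l6 were also lower, at log2 ratios of -1.30 and -1.72. Slc43a1, with 5 counts in 2KR and 36 in WT, passed the filter only through WT. Near Kcnt1, Gm996 and Nacc2 were lower, at -1.76 and -1.09. Gria2 had 1 tested neighbour, Pdgfc, at 0.50, and the 3 near Kcnq5 lay between 0.09 and 0.38. The 4 near Trpm6 lay between -0.26 and -0.01. Beside Gria3, Xiap, an inhibitor of apoptosis 381 kb away, went the other way, with 1979 counts in 2KR and 472 in WT. P2rx1, 145 kb from P2rx5 in the same gene cluster, had a log2 ratio of 0.07, while Ctns, 10.9 kb away, was lower at -1.47. Beside Clcn3, Mfap3l was higher at 1.05.

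**Figure D4:**
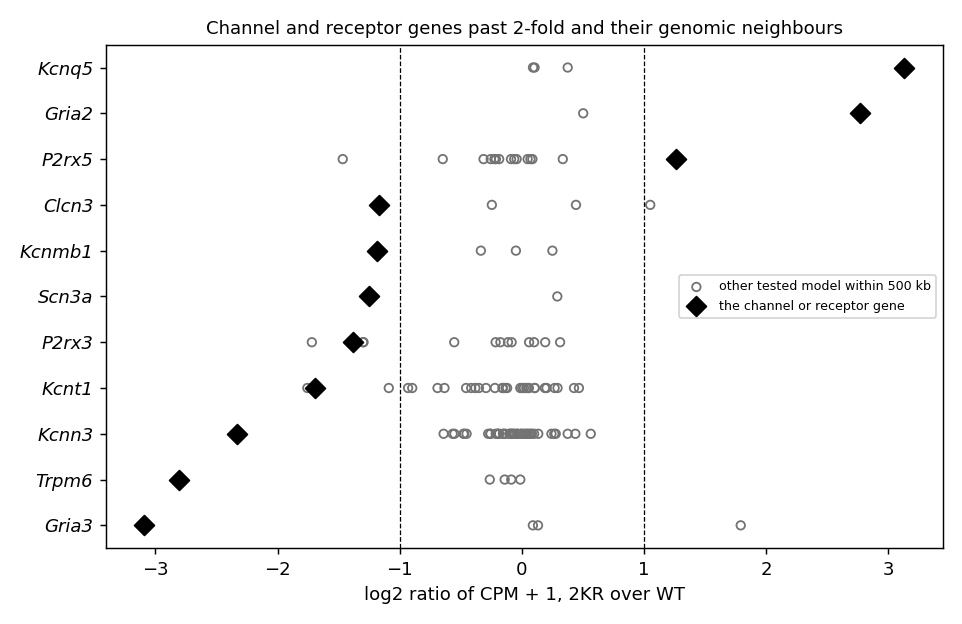
Log2 ratio of CPM + 1, 2KR over WT, of the 11 channel and receptor genes past 2-fold (diamonds) and of the other tested gene models within 500 kb of each (open circles), with dashed lines at 2-fold. The neighbours cluster near 0 in most rows, and circles beyond the line on the side of the diamond appear beside P2rx3 and Kcnt1.

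Other channel-related genes were read in the same way. The share past 2-fold in each list is set beside the 7.22% of all tested models. Of 17 tested store-operated and intracellular calcium channel genes, 1 was at least 2-fold higher and 0 lower (5.88%, near that share), with a median log2 ratio of -0.08. That 1 was Ryr1, a release channel of muscle, with 116 counts in 2KR and 22 in WT, 4.47-fold higher (2.82 to 7.42). Itpr3, an abundant calcium release channel, had 214 CPM in 2KR and 253 in WT. Itpr2, another release channel, had a log2 ratio of -0.42 and Saraf, a brake on store-operated entry, one of -0.004.

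Of 14 tested anion and volume channel genes outside the CLC family, 1 was higher and 0 lower (7.14%, near the 7.22% of all tested models), with a median of 0.06. This was Lrrc8d, a subunit of the volume-regulated anion channel, with 82.1 CPM in 2KR and 14.2 in WT, 5.76-fold higher (5.04 to 6.61). Ttyh2 and Ano7 had log2 ratios of 0.98 and 0.88, under the rule, and the abundant Clic4 and Clic1 had 0.14 and -0.18. Of 21 tested genes of calcium pumps, exchangers and the calcineurin and NFAT pathway, 1 was higher and 0 lower (4.76%, under the 7.22% of all tested models), with a median of -0.001. Atp2b4, a calcium pump of the cell surface, was 2.68-fold higher (2.52 to 2.85), with 208 CPM in 2KR and 77.4 in WT. Rcan1, a calcineurin inhibitor that NFAT induces, had a log2 ratio of -0.92, Nfatc2 -0.76, Calm2 0.18 and Calm3 -0.001.

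In the last 3 lists each count is 1 or 2 genes of at most 9, too few to set apart from the 2.66% higher and 4.56% lower of all tested models. Auxiliary subunits outside the name rule had 9 tested genes, 0 higher and 1 lower (11.1%), with a median of 0.14. Shisa7 was the lower one, with 14 counts in 2KR and 55 in WT, 4.63-fold lower (2.54 to 9.02). The AMPA receptor auxiliary gene Cnih2 had a log2 ratio of 0.49, Cnih1 0.19, the kainate receptor partner Neto2 0.72, and Ostm1 -0.43. Metabotropic receptors, delta receptors and scaffolds had 9 tested genes, 1 higher and 1 lower (22.2%), with a median of -0.09. Shank3, a scaffold of the postsynapse, was 2.16-fold higher (1.89 to 2.48) and Dlg3, which binds NMDA receptors, 2.43-fold lower (1.86 to 3.18). Homer3, a scaffold, had a log2 ratio of 0.83, Dlg1 -0.09 and Nsf, the fusion ATPase, -0.32. Other cation channels had 8 tested genes, 0 higher and 1 lower (12.5%), with a median of 0.08. Cngb1, a subunit of cyclic nucleotide-gated channels, was 2.77-fold lower (1.89 to 4.12), while Trpa1 had a log2 ratio of 0.90 and Piezo1, Hvcn1 and Tmem63a had 0.07, 0.09 and -0.17.

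Markers of other cell types were read beside these genes. Of 12 neural and glial markers 4 had at least 10 counts in each library, the summed level was 24.95 CPM in 2KR and 46.1 in WT, most of it Mbp, and Rbfox3 and Snap25 were at 0 in both. Of 10 mast cell and basophil markers 6 had at least 10 counts in 2KR and 8 in WT, and the sum was 3446 CPM in 2KR and 6647 in WT, mostly Cpa3, with Fcer1a at 0 in both. Of the 8 of these markers that were tested, 7 were at least 2-fold lower and 1 higher. Of all tested models, 7.22% were past 2-fold in either direction. Of the 7 lower markers, Prss34, Cma1 and Ms4a2 had under 1 CPM in 2KR and passed the filter only through WT. The count is therefore a description. By the same 2-fold rule 3 of 6 tested monocyte and macrophage markers were lower and 1 higher. The higher one, Ly6c2, had 6.31 CPM in 2KR and 0.858 in WT and passed the filter only through 2KR. In other lists 2 of 6 megakaryocyte markers were higher, 1 of 3 T and NK markers was higher, and 1 of 4 neural and glial markers was lower. Of the tested erythroid markers (4) and stromal and endothelial markers (7), 0 were past 2-fold. Monocyte and macrophage markers summed to 116 CPM in 2KR and 266 in WT, and 7 of 9 models had at least 10 counts in each library, with none at 0 in both. Megakaryocyte markers summed to 1360 and 1041 CPM in the same order, with 6 of 8 at 10 counts or more in each and none at 0 in both. Erythroid markers summed to 27.2 CPM in 2KR and 19.0 in WT (4 of 8 in each, with Hbb-bs and Slc4a1 among those at 0), and stromal and endothelial ones to 1147 and 1111 CPM (8 of 9 in 2KR and 7 of 9 in WT, none at 0 in both, with Pecam1 and Pdgfrb making up most of it). T and NK markers summed to 22.2 CPM in 2KR and 13.6 in WT (3 of 8 in each, Cd3e and Ncr1 at 0), and B lymphoid ones to 1.46 and 0.801 CPM (1 of 8 in 2KR and 0 in WT, Cd79b, Ebf1 and Pax5 at 0). The part of cell composition in the channel gene differences was not tested.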

How the data were processed

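Per the labels' protocols, total RNA of transduced progenitors was sequenced, with 1 library for each infection. The submitters' processing notes name HISAT2 2.0.4 and GRCm38. The counting program, annotation release and strand setting were not given in the sources used here. Each file deposited by the authors holds a read count and an FPKM for every model, per the file headers. The deposited FPKM equalled the count over a fixed length and the library total, within 0.1%, in 15403 of 15403 models read in both libraries. Levels are compared between genes on this FPKM. Shares of a family are also given by counts, which depend on transcript length as well.

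Counts were scaled with edgeR 4.0.16 (TMM factors 1.007 for 2KR and 0.993 for WT) in R 4.3.3, and further steps used Python 3.11.15, pandas 2.3.3, numpy 2.4.6, scipy 1.17.1 and matplotlib 3.10.9. Library depth sets the counting error, and the floor of 3 counts equals 0.146 CPM in 2KR and 0.172 CPM in WT. The pseudocount of 1 CPM understates differences of low genes. Variation between cultures was not measured. The size rule and intervals were tested on simulated data. Strand, exons and overlaps came from GENCODE M21 on GRCm38, where 178 of 178 identifiers matched and 127 had identical coordinates. Of the 48 tested genes, 19 shared exon bases with another model on either strand. Where counting ignores strand, reads of antisense partners cannot be told apart. Promoters are from RefSeq (GRCm38.p6): 130 genes had a listed start, and 121 had it within 1000 bases of the model's 5′ end. Alternatives were other pseudocounts, filters, scalings (DESeq2 1.42.0 size factors among them), FPKM and other fold limits.

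The genes named are the tested members past 2-fold, glutamate receptor genes with at least 10 counts, the 3 highest by FPKM and the widest ratio in each other class, and from each further list up to 3 widest ratios and the 2 highest. Kcnn4, Kcnk5, Kcnk6, Kcnma1, Clcn1, Clcn2, Clcn5, Trpm2, Trpm4, Trpv4, P2rx7, Grik1, Grik2, Grik3, Gria4, Scn2a1, Kcnq1ot1 and the neighbours were chosen after their values were seen. A few genes that this rule names are not reported here. The members and lists were chosen with earlier results of these data known.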

Additional observations from a re-analysis of the deposited data

How the results depend on the processing

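A pseudocount or a filter cannot turn a ratio round. A scaling moves all ratios in the same direction, though not all by the same amount, and can turn round only ratios near 1. Centred on the median of all models, Trpv2 went from a log2 ratio of 0.008 to -0.009. The 11 genes past 2-fold kept their direction in all alternatives, which for them bear on how many pass. The count of higher genes, in place of 3, was 7 when the pseudocount was 0.1 and 2 when it was 5. It was 1 under a filter at 5 CPM, 4 with no filter, 4 with library totals and 1 on FPKM. With a 1.5-fold rule it was 8, and with a 3-fold rule 2. The count of lower genes, in place of 8, was 5 under the filter at 5 CPM and 1 on FPKM. With a pseudocount of 5 it was 6, with the 1.5-fold rule 11 and with the 3-fold rule 4. With no filter 93 genes were tested, and their median log2 ratio was -0.08; on FPKM 30 were tested. On FPKM + 1, Gria2 and P2rx3 were the genes that passed. FPKM divides the same counts by gene length, so the added 1 and the filter weigh more on genes with low FPKM. Trpm6, with 0.015 FPKM in 2KR and 1.02 in WT, had a log2 ratio of -0.99 on this scale. Kcnn3, Kcnmb1 and P2rx5 also fell short with a pseudocount of 5, with lowest sizes of -0.52, -0.65 and 0.54 over the alternatives. Over all models, 331 were higher and 569 lower by the main rule. These counts were 457 and 703 when the pseudocount was 0.1, 147 and 297 when it was 5, and 153 and 263 on FPKM. They were 207 and 377 under the filter at 5 CPM, 349 and 601 with no filter, and 346 and 550 with library totals. With 1.5-fold they were 863 and 1205, and with 3-fold 112 and 253. No paired analysis was possible because each form had 1 library. With 2 or 5 counts in one library, the ratios of Kcnq5, Trpm6 and Kcnn3 are known only within wide counting intervals. Depth limits the genes under 10 counts, for which no difference could be read.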
